A study of Mus musculus with 2 samples.

Results

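The scavenger and endocytic receptors of the liver sinusoid were followed over endothelial subtypes and macrophages of 2 mouse livers, from 1 mouse exposed to PCB126 and 1 Control mouse. The set was a fixed list of 9 genes out of 34244 in the deposited matrices, namely Stab1, Stab2, Lyve1, Mrc1, Clec4g, Fcgr2b, Cd36, Msr1 and Scarb1. PCB126 is a polychlorinated biphenyl with dioxin-like action, a ligand of the aryl hydrocarbon receptor (AHR). The PCB126 mouse was given 20 µg/kg/day and the Control mouse peanut oil, although the treatment label of the Control mouse reads "Untreated". The protocol mentions 1 gavage while the dose is stated per day. Both mice were C57/BL6, both were exposed for 5 weeks and fasted for 12 h, and both carry the age label postnatal day 21, with no word on the time point it refers to. Hepatocytes had been spun and strained out and red cells lysed, so the single-cell 3′ libraries hold the non-parenchymal cells.

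Liver sinusoidal endothelial cells line the capillaries of the liver and clear waste macromolecules from the blood by receptor-mediated endocytosis. Between them the stabilins take up hyaluronan, modified lipoproteins and collagen fragments. The mannose receptor takes up glycoproteins, and Fcgr2b takes up small immune complexes. In healthy mouse liver these receptors mark the sinusoid and are low in the larger vessels, and several also occur in macrophages.

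With 1 library per group, mouse, library and treatment cannot be told apart, no test between groups was possible, and every interval below covers counting error only. The PCB126 library gave 1138 cells with a median of 6567 unique molecular identifiers (UMIs) per cell, and the Control library gave 1858 cells with a median of 5258. The libraries also differed in composition, and sinusoidal endothelial cells made up 46.1% of PCB126 and 8.77% of Control cells. The median share of mitochondrial UMIs was 12.2% in PCB126 cells and 7.58% in Control cells. Endothelial cells numbered 638 in the PCB126 library and 294 in the Control library. They were split by marker genes that exclude all 9 receptors. Cells with at least 3 UMIs of Vwf, Fbln2, Fbln5, Cd34 and Ly6c1 were taken as vessel cells, venous or arterial and portal by their own markers, and the others as sinusoidal, pericentral or periportal by zone markers. The pericentral class held 232 PCB126 cells and 37 Control cells, and the periportal class 274 and 120. The venous class held 83 PCB126 cells and 91 Control cells, and the arterial and portal class 29 and 36.

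This split was chosen after the data were seen. A broad gate, in contrast, compared the sum of sinusoidal markers with the sum of vascular markers. It left 56 of 286 PCB126 cells and 55 of 92 Control cells with at least 3 vessel UMIs in its pericentral class. The sinusoidal classes carried their markers in both libraries. Summed over 7 sinusoidal markers, the pericentral level was 8648 CPM (the UMIs of a gene relative to all UMIs of the class) in PCB126 cells and 8279 CPM in Control cells, and the periportal level 9684 CPM in PCB126 and 7987 CPM in Control. The vessel classes were mixed by these markers. In venous cells the same 7 genes summed to 3664 CPM in PCB126 and 5123 CPM in Control, above the 8 vascular markers at 2283 CPM in PCB126 and 3305 CPM in Control. The 4 central vein markers were higher there, at 6699 CPM in PCB126 and 5510.4 CPM in Control. Cyp1a1, a direct AHR target, reached 4731 CPM in PCB126 sinusoidal cells and 21.0 CPM in Control sinusoidal cells.

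Cd36 was the one receptor called lower in PCB126 cells in all 4 endothelial classes. Msr1 was lower on the portal side, Stab1 in pericentral and venous cells, and Lyve1 in venous cells. Clec4g was higher in periportal cells but lower in arterial and portal cells, where Mrc1 was lower too. Fcgr2b was lower in venous cells. Stab2, a main clearance receptor of the sinusoid, differed by less than 1.1-fold in both sinusoidal zones of the split used here. Some other cuts of sinusoidal cells gave higher Stab2 levels in PCB126, as described below. Stab2 was called lower in both vessel classes, with a ratio of PCB126 to Control of 0.479 in venous and 0.573 in arterial and portal cells. A receptor was called different when it had at least 50 UMIs over both libraries, a ratio of PCB126 to Control of at least 1.5 or at most its inverse, and a 95% interval that excluded 1.

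By that rule 2 of the 8 receptors with enough UMIs were called in pericentral cells, where 14.6% of all genes with enough UMIs were called. In periportal cells 3 of 9 were called, against 19.1% of all genes. In venous cells 5 of 8 were called, all lower, against 15.2% of all genes in either direction and 9.77% lower. In arterial and portal cells 5 of 7 were called, all lower, against 19.6% in either direction and 11.2% lower. Over all sinusoidal cells together only Cd36 and Msr1 of the 9 were called, against 18.3% of genes. The share called was thus near that of all genes over all sinusoidal cells. In the pericentral and periportal classes it was somewhat above, by counts too small to weigh. The shares lower in the vessel classes were above those of all genes by more. The receptors' median log2 ratio lay at 0.03 in pericentral and 0.10 in periportal cells, beside 0.03 and 0.09 for all genes. In venous cells it was -0.87, and in arterial and portal cells -0.69, beside -0.07 and -0.01 for all genes.

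**Figure D1:**
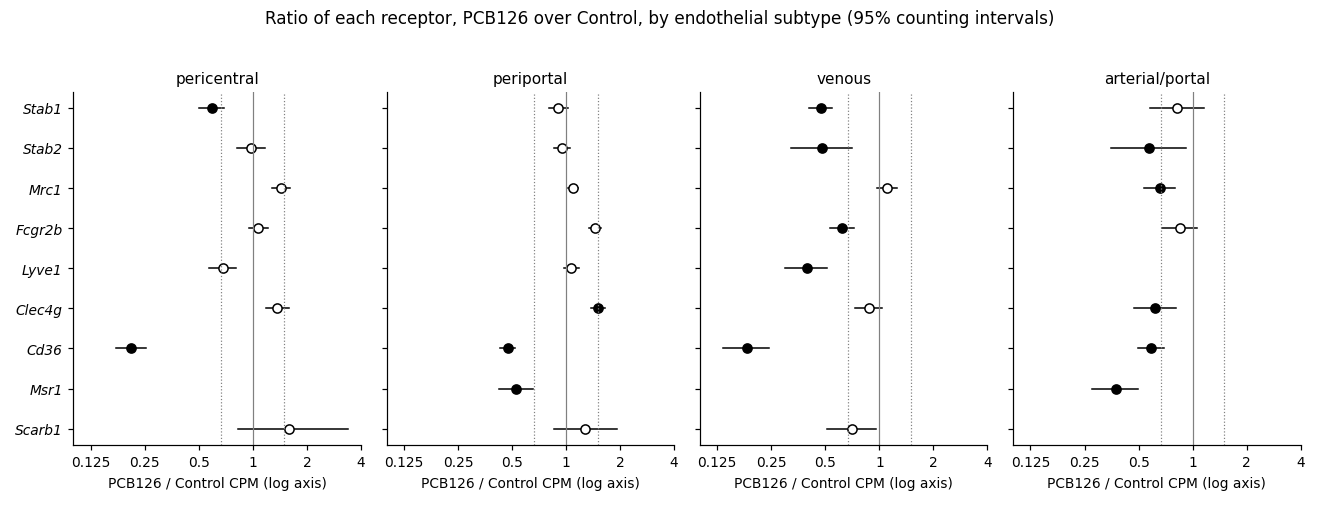
Ratio of CPM, PCB126 over Control, for each receptor in 4 endothelial classes on a log axis. Lines are exact 95% counting intervals, filled points were called, dotted lines mark 1.5-fold either way, and receptors under 50 UMIs in a class are not drawn. Cd36 is the only receptor left of the dotted line in all 4 panels, from 0.183 in venous to 0.586 in arterial and portal cells.

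The broad gate gave 3 called receptors of 9 in sinusoidal cells, where 13.6% of genes were called. These were Clec4g with a ratio of 1.68, Cd36 with 0.402 and Msr1 with 0.416. In its pericentral class 5 of 8 were called, against 14.0% of genes, and Stab2, Mrc1 and Clec4g were higher at ratios of 1.79, 1.92 and 2.01. With the vessel-marker cells taken out those ratios were 0.976, 1.44 and 1.37, so none of the 3 was called. In its periportal class 4 of 9 were called, against 17.4% of genes, with Fcgr2b at 1.56 and Clec4g at 1.58. In its vascular class 4 of 7 were called, against 17.0% of genes, and all 4 were lower. Vwf, one of the markers that separate the gates, was itself lower in PCB126 venous cells, at 1266 CPM against 1961 CPM in Control venous cells.

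Stab1 and Stab2 encode the stabilins, large fasciclin-domain scavenger receptors for oxidized lipoproteins. Stab1 reached 531 CPM in PCB126 pericentral cells and 901 CPM in Control pericentral cells, a ratio of 0.589 (95% interval 0.503 to 0.693). In periportal cells it was 641 CPM in PCB126 and 709 CPM in Control, a ratio of 0.905 (0.807 to 1.02). The pericentral call of the broad gate, 0.640, was lost at 0.816 among cells with no S100a8 or S100a9 UMI and little hemoglobin. The pericentral intervals of the libraries do not overlap, whereas the periportal intervals do. In venous cells Stab1 was 304 CPM in PCB126 and 644 CPM in Control, a ratio of 0.472 (0.407 to 0.547). The order of zones also differed. Within the PCB126 library the periportal level was 1.21 times the pericentral level (1.10 to 1.33), and within the Control library 0.787 times (0.663 to 0.936).

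Stab2 had the highest ratio of sinusoidal to vessel levels among the 9 in both libraries. Its sinusoidal level was 11.3 times the vessel level in PCB126 cells (8.85 to 14.6) and 6.73 times in Control cells (5.64 to 8.06). In pericentral cells it reached 635 CPM in PCB126 and 650.1 CPM in Control, a ratio of 0.976 (0.817 to 1.17). In periportal cells it reached 777 CPM in PCB126 and 822 CPM in Control, a ratio of 0.946 (0.851 to 1.05). Both intervals lie inside the 1.5-fold bounds. Over 9 alternative settings the pericentral ratio ranged from 0.925 to 1.06. The zone mix differed, with 110 PCB126 and 7 Control cells at a periportal share of zone-marker UMIs under 25%. Stab2 was 474 and 291 CPM in those cells, with overlapping intervals, and 807 and 771 CPM at 25% to 50%. The part of zone mix was not tested. Stab2 was higher in PCB126 in the broad pericentral class, at 1.79, and among barcodes with 20% to 50% mitochondrial UMIs. In venous cells Stab2 fell to 47.1 CPM in PCB126, against 98.2 CPM in Control. Without thinning, 18 of 83 PCB126 venous cells (21.7%) and 23 of 91 Control venous cells (25.3%) carried a Stab2 UMI. The shares were thus close, with 39 UMIs in the PCB126 cells and 99 in the Control cells. After thinning every cell to 1000 UMIs, Stab2 was seen in 0 of 83 PCB126 and in 13.2% of Control venous cells. The exact interval around 0 of 83 reaches 4.35%, and neutrophils gave 0 in both libraries.

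Lyve1 is a hyaluronan receptor shared by sinusoidal and lymphatic endothelium. Only 1 PCB126 and 0 Control endothelial cells carried UMIs of at least 2 lymphatic markers. Lyve1 was 1028 CPM in PCB126 periportal cells and 957 CPM in Control periportal cells, a ratio of 1.07 (0.976 to 1.18). In pericentral cells it was 511 CPM in PCB126 and 752 CPM in Control, and the ratio of 0.680 (0.573 to 0.811) fell just short of the 1.5-fold bound. The zones therefore stood further apart in the PCB126 library, with a periportal level 2.01 times the pericentral one, against 1.27 times in the Control library. The zone mix differed, however. A periportal share of zone-marker UMIs under 25% was held by 110 PCB126 and 7 Control cells, and one of 25% to 50% by 112 and 25. In the latter cells Lyve1 was 766 CPM in PCB126 and 852 CPM in Control, with overlapping intervals. In the former it was 264 and 515 CPM. The part of zone mix was not tested. In venous cells Lyve1 was 90.5 CPM in PCB126 and 230.2 CPM in Control, a ratio of 0.393 (0.299 to 0.512). The 75 PCB126 UMIs came from only 7 of 83 cells, and the 232 Control UMIs from 35 of 91. Over alternative settings the ratio ranged from 0.0579 to 0.601. The lowest came from the venous Leiden cluster, at 15.4 CPM in PCB126 and 266 CPM in Control, so the size of the difference is uncertain.

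Lower venous levels were not limited to these receptors. The 7 markers of sinusoidal identity summed to 3664 CPM in PCB126 venous cells and 5123 CPM in Control venous cells. None of the 7 was at 0, and 6 of them were lower in PCB126, such as Oit3 at 274 CPM against 525 CPM in Control. In arterial and portal cells the same 7 summed to 2544 CPM in PCB126 and 4213 CPM in Control. Cells near the vessel cut were also unequal. Only 3 or 4 vessel UMIs were held by 9 of 113 PCB126 and 20 of 131 Control vessel cells. Below the cut, 39 of 638 PCB126 and 52 of 294 Control endothelial cells had 1 or 2. How far sinusoidal cells or their RNA within the vessel classes carry the lower receptor levels there was not tested.

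Mrc1 encodes the mannose receptor and Clec4g a C-type lectin of the sinusoid known as LSECtin. Mrc1 reached 2014 CPM in PCB126 pericentral cells and 1402 CPM in Control pericentral cells, a ratio of 1.44 (1.28 to 1.62). In periportal cells it reached 2129 CPM in PCB126 and 1951 CPM in Control, a ratio of 1.09 (1.02 to 1.17). Neither ratio passed the 1.5-fold rule. Arterial and portal cells went the other way, with 593 CPM in PCB126 and 907 CPM in Control, a called ratio of 0.654 (0.533 to 0.801).

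Clec4g was 1672 CPM in PCB126 periportal cells and 1110.0 CPM in Control periportal cells, a ratio of 1.51 (1.38 to 1.64) that sits at the bound. In pericentral cells it was 1265 CPM in PCB126 and 924 CPM in Control, a ratio of 1.37 (1.18 to 1.59). The periportal call held in 7 of 13 alternative settings, with ratios from 1.22 to 1.81. Both other scalings gave 1.40 and ended the call. Thinning to 1000 UMIs gave the lowest ratio, and then 71.1% of PCB126 and 67.8% of Control periportal cells carried a UMI, with overlapping intervals. In arterial and portal cells Clec4g was 341 CPM in PCB126 and 552 CPM in Control, a called ratio of 0.619 (0.472 to 0.807).

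Fcgr2b encodes the inhibitory IgG receptor through which sinusoidal cells take up immune complexes. It was 2075 CPM in PCB126 periportal cells and 1432 CPM in Control periportal cells, a ratio of 1.45 (1.34 to 1.56) short of the 1.5-fold bound. In pericentral cells it was 1415 CPM in PCB126 and 1319 CPM in Control, a ratio of 1.07 (0.948 to 1.22). Venous cells were called lower, with 305 CPM in PCB126 and 493 CPM in Control, a ratio of 0.619 (0.530 to 0.722). Among cells with no S100a8 or S100a9 UMI and little hemoglobin the venous ratio was 0.870, and among those with at most 10% mitochondrial UMIs 0.714, neither of them called. The zones separated in the PCB126 library, with a periportal to pericentral ratio of 1.47 (1.39 to 1.55), and hardly in the Control library, at 1.09 (0.949 to 1.25).

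**Figure D2:**
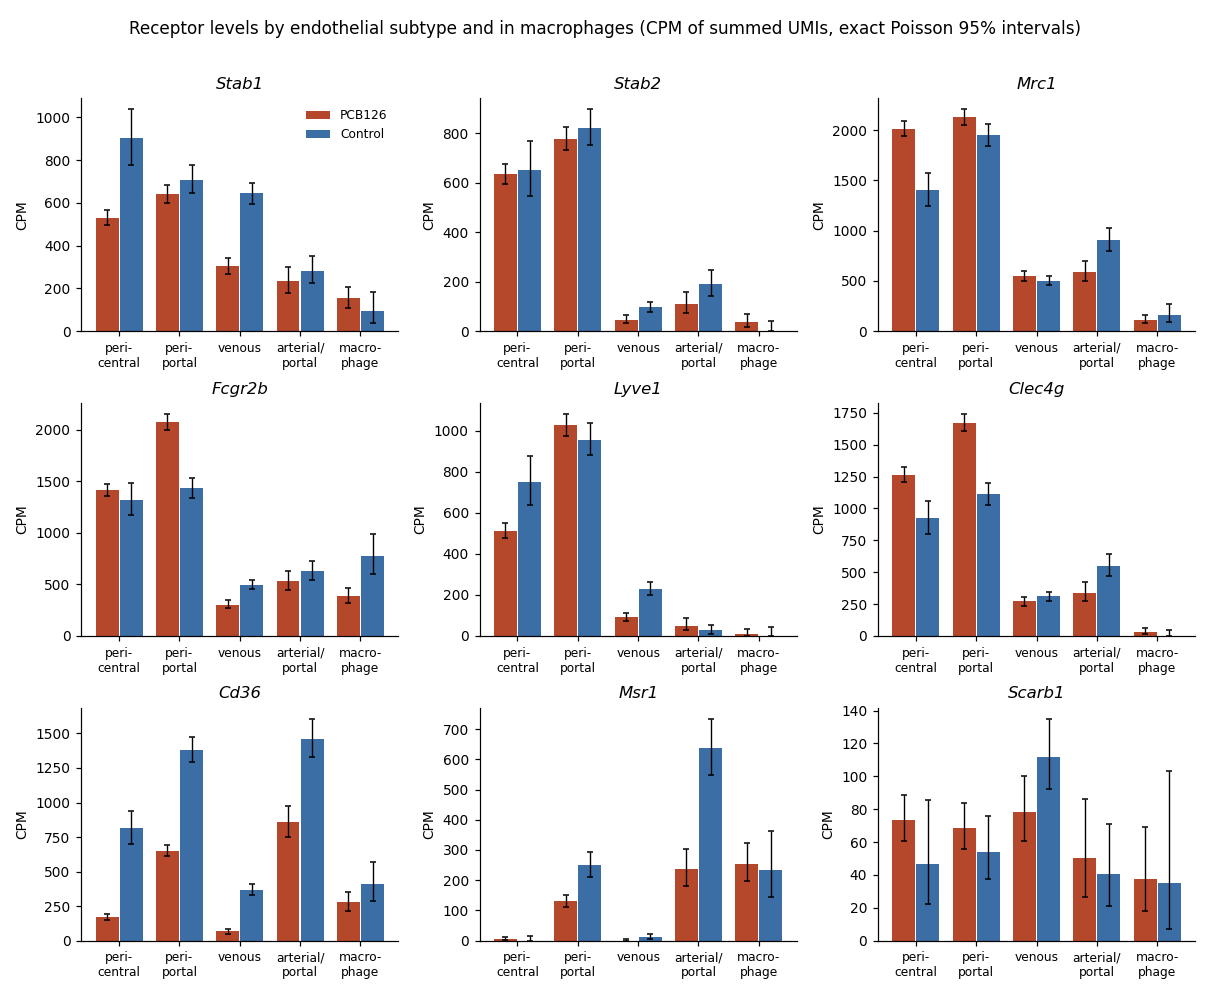
Level of each receptor in CPM of summed UMIs in 4 endothelial classes and in macrophages, with PCB126 bars left of Control bars and exact Poisson 95% intervals. Stab2 stays near 635 to 822 CPM in both sinusoidal zones of both libraries, while Cd36 bars are lower in PCB126 in every class drawn, with overlapping intervals in macrophages.

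Cd36 encodes a class B scavenger receptor and fatty acid translocase, which binds oxidized lipoproteins and imports long-chain fatty acids. In pericentral cells it fell to 170.0 CPM in PCB126 (254 UMIs), against 813 CPM in Control (175 UMIs), a ratio of 0.209 (0.172 to 0.255). In periportal cells it fell to 652 CPM in PCB126, against 1381 CPM in Control, a ratio of 0.472 (0.430 to 0.519). In venous cells it fell to 67.6 CPM in PCB126, against 370.1 CPM in Control, a ratio of 0.183 (0.135 to 0.242). The intervals of the libraries were apart in each of these classes. In arterial and portal cells it was 857 CPM in PCB126 and 1462 CPM in Control, a ratio of 0.586 (0.496 to 0.691). Cd36 was thus highest in arterial and portal cells in both libraries. In the Control library the interval there overlapped that of periportal cells.

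Sinusoidal cells of the libraries fell into different Leiden clusters, which were made without the 9 receptors and the AHR targets. Of periportal cells 219 of 274 in PCB126 lay in cluster 1, which held 12 of 120 Control ones, and 74 of 120 in Control lay in cluster 15, which held 2 PCB126 ones. Of pericentral cells 102 and 90 of 232 in PCB126 lay in clusters 1 and 7, and the 37 Control cells were spread, with 12 in the venous cluster. The within-class values of all 9 receptors thus compare cells of different clusters, and cell state and library cannot be told apart there. Venous cells shared a cluster, with 77 of 83 in PCB126 and 82 of 91 in Control, and so did arterial and portal cells, with 28 of 29 in PCB126 and 35 of 36 in Control. Within those shared clusters the Cd36 ratio was 0.147 (0.102 to 0.205) and 0.637 (0.561 to 0.723). In the venous one Stab1, Stab2, Fcgr2b and Lyve1 were called lower as well. In the arterial and portal one Msr1 was called lower too, at 0.364. Stab2, Mrc1 and Clec4g were not called there, at 0.869, 0.712 and 0.742, and Lyve1 was called higher at 1.88 (1.23 to 2.89). In cluster 2, a sinusoidal cluster with 70 PCB126 and 48 Control cells, the Cd36 ratio was 0.572 (0.367 to 0.892). Stab2, Mrc1, Fcgr2b and Clec4g were higher there at 3.15, 2.09, 3.30 and 2.48, and Stab1 stood at 1.55 (1.00 to 2.47).

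A similar picture came from the share of cells. After thinning to 1000 UMIs a Cd36 UMI was found in 11.2% of PCB126 pericentral cells (7.45% to 16.0%) and in 54.1% of Control pericentral cells (36.9% to 70.5%). In periportal cells the shares were 43.7% in PCB126 and 61.0% in Control. Neutrophils, in which the gene marks background, gave 0 of 92 PCB126 cells, an exact interval up to 3.93%, and 0.400% of Control cells. Their median depths were 3944 UMIs in PCB126 and 3552 UMIs in Control, against 6323 and 5600 UMIs in pericentral cells.

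**Figure D3:**
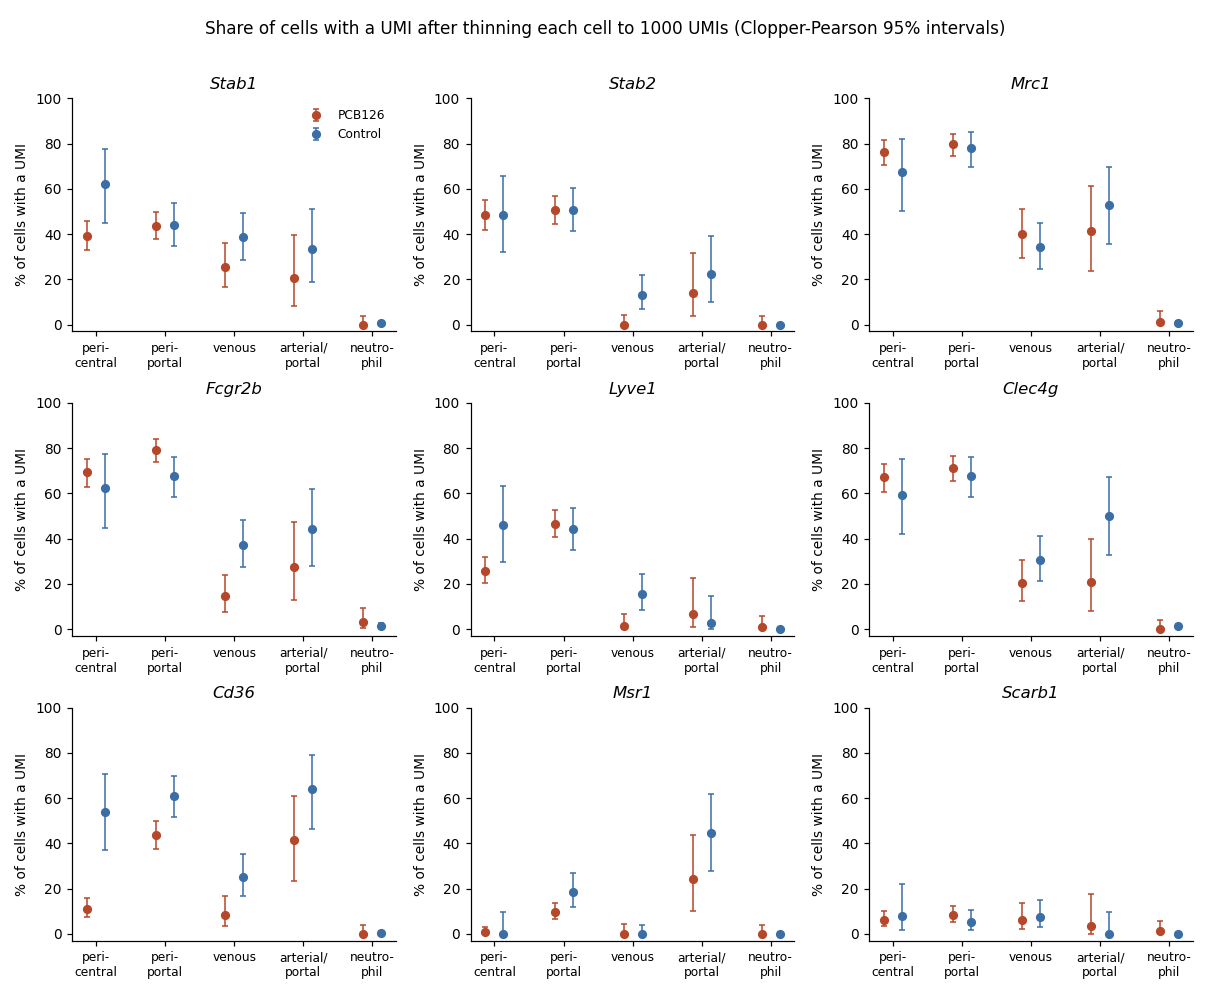
Percent of cells with at least 1 UMI of each receptor after thinning each cell to 1000 UMIs, in 4 endothelial classes and in neutrophils as background, PCB126 left of Control, with Clopper-Pearson 95% intervals. For Cd36 the pericentral points stand at 11.2% in PCB126 and 54.1% in Control, while for Stab2 they stand at 48.3% and 48.6%.

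Cd36 was zoned in both libraries. Its periportal level was 3.84 times the pericentral level in the PCB126 library (3.34 to 4.42) and 1.70 times in the Control library (1.44 to 2.01). Across 4 bins of the periportal share of zone-marker UMIs in sinusoidal cells, Cd36 was 113, 228, 416 and 838 CPM in PCB126 cells and 582, 921, 1187 and 1571 CPM in Control cells. It climbed from the central to the portal end in both libraries and was lower in PCB126 in each bin. The first Control bin held only 7 cells, and the next 3 held 25, 36 and 74. Zone markers differed between libraries too, with Kit at 951 CPM in PCB126 and 636 CPM in Control pericentral cells and Adam23 at 1274 CPM in PCB126 and 1733 CPM in Control periportal cells.

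Over sinusoidal cells the Cd36 ratio of 0.328 (0.302 to 0.356) was called under all 14 alternative settings and ranged from 0.265 to 0.385. Red-cell RNA moved with the library. The 4 hemoglobin genes summed to 210.4 CPM in PCB126 and 2373 CPM in Control sinusoidal cells, and S100a8 with S100a9 to 13.0 CPM in PCB126 and 179 CPM in Control. In pericentral cells the hemoglobin sum was 63.6 CPM in PCB126 and 4026 CPM in Control, beside the lower Cd36 and Stab1 there, and only 5 Control cells passed the limits given next, too few for a ratio. In the pericentral class of the broad gate the same limits left Cd36 called at 0.383 and moved Stab1 to 0.816, not called, beside 0.640 with all cells. Over all sinusoidal cells with no S100a8 or S100a9 UMI and at most 0.1% hemoglobin, the Cd36 ratio was 0.265. With at most 10% mitochondrial UMIs per cell it was 0.359. The macrophage panel of 8 genes was near 0 in sinusoidal cells, at 7.98 CPM in PCB126 and 10.5 CPM in Control.

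Outside the endothelium Cd36 was highest in macrophages, whose values are given with that class. It was 87.6 CPM in PCB126 cholangiocytes and 56.9 CPM in Control cholangiocytes, and 65.6 CPM in PCB126 and 64.2 CPM in Control dendritic cells. In B cells 3 UMIs were seen in PCB126 and 9 in Control.

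The promoter of Cd36 is shown because its transcript was lower in every endothelial class under an AHR ligand, and that of Clec4g because it was called in the opposite direction in periportal cells. RefSeq promoter windows on GRCm38.p6, from 250 bases before to 50 bases after the start, were found for 6 of the 9 receptors. The Cd36 window lies on the minus strand at chr5:17835847-17836146, inside the GENCODE M21 gene span of 17781690 to 17888801. The Clec4g window lies on the minus strand at chr8:3720602-3720901. Capitals mark the ETS core GGAA on either strand, the core bound by a factor family that is active in endothelial cells.
Cd36: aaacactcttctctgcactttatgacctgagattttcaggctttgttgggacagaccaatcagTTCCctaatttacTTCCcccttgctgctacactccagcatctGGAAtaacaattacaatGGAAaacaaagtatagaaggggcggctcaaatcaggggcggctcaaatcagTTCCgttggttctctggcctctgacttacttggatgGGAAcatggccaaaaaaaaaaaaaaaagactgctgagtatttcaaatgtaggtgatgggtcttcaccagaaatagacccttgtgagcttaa
Clec4g: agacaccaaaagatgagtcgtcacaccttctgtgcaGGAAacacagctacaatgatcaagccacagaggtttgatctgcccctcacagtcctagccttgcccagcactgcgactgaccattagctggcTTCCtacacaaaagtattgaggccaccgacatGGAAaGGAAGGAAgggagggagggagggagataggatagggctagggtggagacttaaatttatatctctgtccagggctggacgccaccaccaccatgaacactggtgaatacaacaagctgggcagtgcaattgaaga
The AHR core GCGTG was found on neither strand in any of the 6 windows, beside 32.4% of 32851 windows of all genes. The NRF2 element TGACNNNGC was likewise found in 0 of 6, beside 12.4% of all windows. The ETS core was found in 6 of 6, but it occurs in 96.0% of all windows. With the first pair absent, no overlap between motifs arose, and absence from 300 bases says nothing about sites elsewhere.

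Msr1 encodes the class A scavenger receptor, best known from macrophages. It was tied to the portal side of the endothelium in both libraries. In periportal cells it was 131 CPM in PCB126 (189 UMIs) and between 212 and 292 CPM in Control (exact interval, 157 UMIs), a ratio of 0.524 (0.422 to 0.652). In arterial and portal cells it was 237 CPM in PCB126 and 636 CPM in Control, a ratio of 0.372 (0.274 to 0.499). In pericentral cells 8 UMIs were seen in PCB126 and 0 in Control, and in venous cells 0 in PCB126 and 13 in Control. Both classes were thus near the detection limit.

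In the most portal of the 4 zone bins Msr1 was 205 CPM in PCB126 cells (174 to 239) and 415 CPM in Control cells (352 to 487). In the bin before it the levels were 44.6 CPM in PCB126 and 20.5 CPM in Control, with overlapping intervals. When classes came from Leiden clusters, the periportal ratio was 0.883 and not called, and the cause was not tested. The arterial and portal ratio was called in 10 of 11 settings.

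**Figure D4:**
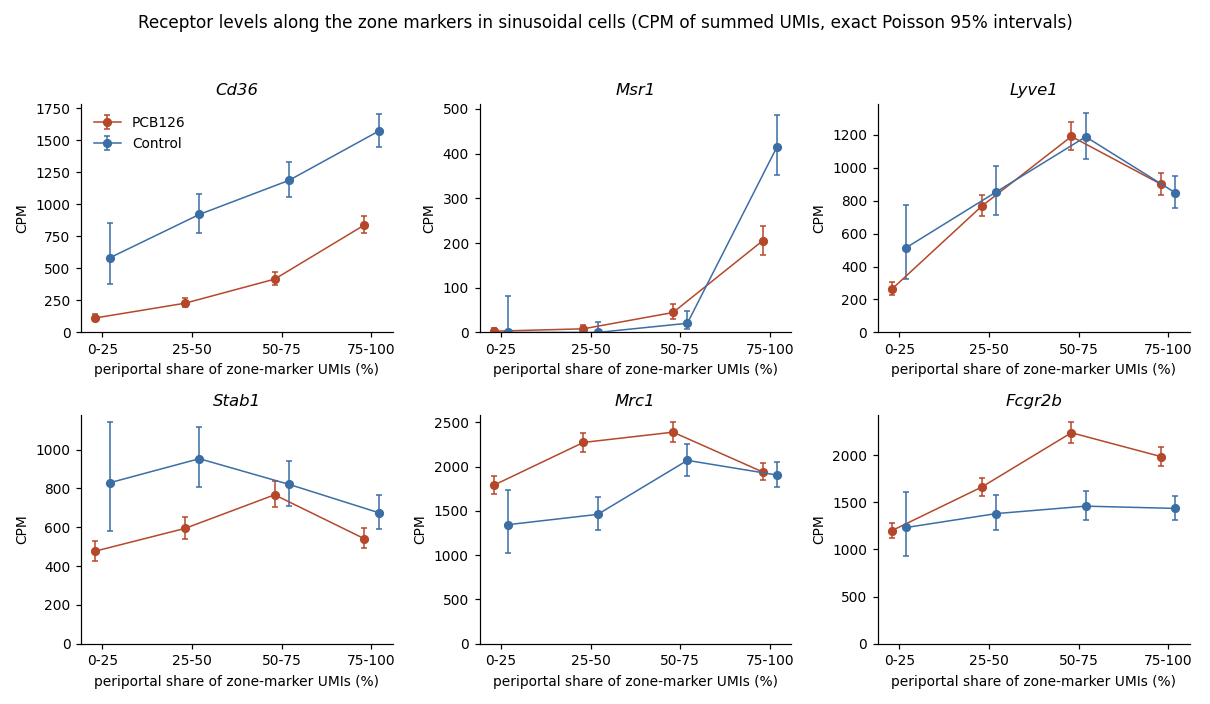
Levels of 6 receptors in sinusoidal cells, in CPM with exact Poisson 95% intervals, over 4 bins of the periportal share of zone-marker UMIs in percent. Cd36 climbs in both libraries with PCB126 below Control in all bins, Msr1 separates in the last bin at 205 CPM in PCB126 and 415 CPM in Control, and Lyve1 overlaps in each bin from 25% up. The first Control bin rests on 7 cells.

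Scarb1 encodes SR-BI, the class B receptor for high-density lipoprotein. Like Msr1, whose sinusoidal to vessel ratio was 1.19 in PCB126 cells (0.888 to 1.61) and 1.23 in Control cells (0.993 to 1.52), it was not enriched in the sinusoid. It had a sinusoidal to vessel ratio of 1.00 in PCB126 cells (0.772 to 1.32) and 0.551 in Control cells (0.382 to 0.783). It was 73.6 CPM in PCB126 pericentral cells and 46.4 CPM (10 UMIs) in Control pericentral cells, a ratio of 1.59 (0.831 to 3.40) whose interval includes 1. In venous cells it was 78.5 CPM in PCB126 and 112 CPM in Control, a ratio of 0.700 (0.508 to 0.958) inside the 1.5-fold bounds. Scarb1 was not called in any class.

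Counted together per cell after thinning, the 6 receptors Stab1, Stab2, Mrc1, Fcgr2b, Lyve1 and Clec4g were detected at a mean of 3.26 per PCB126 pericentral cell and 3.46 per Control pericentral cell. In periportal cells the means were 3.71 in PCB126 and 3.53 in Control. Venous cells carried 1.01 in PCB126 and 1.69 in Control, and arterial and portal cells 1.31 in PCB126 and 2.06 in Control. Neutrophils carried 0.0543 in PCB126 and 0.0400 in Control.

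Macrophages by the marker gate were too few to compare, with 27 PCB126 and 6 Control cells. They carried complement genes, with C1qb at 2471 CPM in PCB126 and 2919 CPM in Control. Among the 6 Kupffer genes they differed mainly in Vsig4 and Folr2. Clec4f, Timd4 and Marco were at 0 in both libraries. Vsig4 had 0 UMIs in PCB126 and 29 in Control, Folr2 0 in PCB126 and 5 in Control, and Cd5l 1 in PCB126 and 0 in Control. At least 1 Kupffer gene was seen in 1 of 27 PCB126 and 3 of 6 Control macrophages, so the levels come from unlike cells, and the part of this in them was not tested. Fcgr2b was 387 CPM in PCB126 macrophages (316 to 469) and 774 CPM in Control macrophages (598 to 984). Msr1 was 255 CPM in PCB126 (198 to 324) and 234 CPM in Control (143 to 362), and Cd36 278 CPM in PCB126 (218 to 349) and 410.3 CPM in Control (286 to 571). The Fcgr2b intervals were apart, whereas those of Msr1 and Cd36 overlap. Such intervals treat each UMI as independent, yet the Control values rest on 66 Fcgr2b UMIs in 5 cells and 35 Cd36 UMIs in 3 cells. No difference between libraries is drawn from them. Mrc1 was 116 CPM in PCB126 and 164 CPM in Control, also with overlapping intervals. Stab1 was 154 CPM in PCB126 and 93.8 CPM in Control. PCB126 macrophages also carried the endothelial genes Ptprb at 173 CPM and Flt1 at 124 CPM, both at 0 in Control macrophages, and the part of endothelial RNA in their Stab1 and in their 37.6 CPM of Stab2 was not tested.

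Other leukocytes held some receptors as well. Scarb1 reached 78.4 CPM in 416 Control monocytes, against 17.4 CPM from 2 UMIs in 11 PCB126 monocytes. Fcgr2b reached 87.4 CPM in PCB126 B cells and 140.3 CPM in Control B cells.

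The 9 receptors differed in the company they kept over 18 points of cell class and library, given here as a description of points that share libraries and, within a library, depth. Clec4g was most like Oit3 with a Pearson r of 0.988 on log2(CPM + 10), Mrc1 like Bmp2 with 0.984, Lyve1 like Gmpr with 0.984, Stab1 like Flt1 with 0.984 and Stab2 like Cntfr with 0.980. Fcgr2b was most like Tfec at 0.923 and Scarb1 like Rsu1 at 0.925. Cd36 and Msr1 had looser partners, Map3k7 at 0.888 and Lipo3 at 0.831. Among the members, Lyve1 and Stab2 were most alike at 0.98, and Msr1 with Scarb1 least alike at 0.37. Oit3 had also served to gate sinusoidal cells and Flt1 to gate endothelial cells.

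Of 44 other scavenger and endocytic receptors, 15 had enough UMIs in sinusoidal cells, and 4 were higher and 1 lower in PCB126, where 12.2% of all genes were higher and 6.16% lower. By the broad gate 1 of 16 was higher and 1 lower, where 6.29% of all genes were higher and 7.30% lower. Ackr3, a scavenger of the chemokine CXCL12, was 57.8 CPM in PCB126 and 8.18 CPM in Control sinusoidal cells, a ratio of 7.07 (3.36 to 17.8). Ackr2, a scavenger of inflammatory chemokines, was 27.9 CPM in PCB126 and 45.6 CPM in Control, a ratio of 0.613 (0.414 to 0.920).

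Of 32 genes of the endocytic and lysosomal machinery all had enough UMIs, and 7 were higher and 1 lower in PCB126 sinusoidal cells, with a median log2 ratio of 0.31 beside 0.07 for all genes. Over all genes 12.2% were higher and 6.16% lower. By the broad gate 6 were higher and 0 lower, beside 6.29% and 7.30% of all genes. The lysosomal protease Ctsd was 419 CPM in PCB126 and 201 CPM in Control, a ratio of 2.08 (1.78 to 2.46). The clathrin adaptor Dab2 was 443 CPM in PCB126 and 262 CPM in Control, a ratio of 1.69 (1.47 to 1.96), and dynamin 2 (Dnm2) 115 CPM in PCB126 and 58.4 CPM in Control, a ratio of 1.96 (1.46 to 2.70). In venous cells these 3 had ratios of 1.08, 1.16 and 1.08, and none was called.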

How the data were processed

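The authors deposited raw UMI counts per gene and barcode, 1 matrix per library, with no normalization. Cell Ranger 6.0.0 stands in the matrices' own lines, per the file headers. Cell Ranger 6.1.1 and Seurat 4.0.1 are listed in the submitters' processing notes. The build was not given in the sources used here, and positions come from GENCODE M21. The PCB126 matrix held 4307 barcodes and 16269562 UMIs, and the Control matrix 8550 barcodes and 24134912 UMIs.

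Cells had at least 500 UMIs, 250 genes and at most 20% mitochondrial UMIs, which left 1149 PCB126 and 1886 Control barcodes. The highest Scrublet scores, at an expected 0.8% per 1000 barcodes, took out 11 PCB126 and 28 Control barcodes. Scrublet's own threshold called 3 and 8, so doublets were removed by rank. The libraries shared 3 barcodes, and 0 among cells. A lineage went to the marker panel with most UMIs, with at least 3 of its genes detected. Cells with over 10% hemoglobin were left out. Of the zone classes, 96 PCB126 and 43 Control sinusoidal cells had zone sums within 2 UMIs of each other.

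Raw UMIs were summed per class and library and divided by the class total (CPM). Intervals are exact at 95% (Poisson, Clopper-Pearson, conditional binomial for ratios) and cover counting error only. Ratios needed 20 cells per library. Log2 ratios carry 0.5 added counts. The 9 receptors, the panels and the gene lists were chosen with earlier results of these data known. Named genes were the 9 receptors, the 3 genes most like each over classes with at least 20 cells, of which the first is printed, up to 3 called genes per list and direction by the broad gate, gate markers and Cyp1a1. The ratio step was tested on simulated data. Software was matplotlib 3.10.9, pandas 2.3.3, scipy 1.17.1, numpy 2.4.6, scanpy 1.11.5, scikit-learn 1.9.0, igraph 0.11.9 and Python 3.11.15. The vessel-marker gate and the setting with cells free of S100a8, S100a9 and hemoglobin were chosen after seeing the data, as were values within Leiden clusters. Settings changed were scaling, the UMI minimum, thinning, the mitochondrial limit, doublets, the gates, Leiden clusters, free RNA, cell weighting and zone weighting.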

Additional observations from a re-analysis of the deposited data

Results flagged for a closer look

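3 receptors had ratios on opposite sides of 1 in different endothelial classes, with intervals that exclude 1 on both sides. The difference between classes was not tested. Mrc1 had a ratio of PCB126 to Control of 1.44 in pericentral cells and 0.654 in arterial and portal cells, 2.20 times apart. Fcgr2b had 1.45 in periportal cells and 0.619 in venous cells, 2.34 times apart. Clec4g had 1.51 in periportal cells and 0.619 in arterial and portal cells, 2.43 times apart. The summed markers of sinusoidal identity were also lower in PCB126 in both vessel classes. The part of sinusoidal cells or their RNA in these lower receptor values was not tested. Among cells with no S100a8 or S100a9 UMI and little hemoglobin the venous Fcgr2b ratio was 0.870 and not called.

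Barcodes with 20% to 50% mitochondrial UMIs, which the comparisons leave out, included 936 sinusoidal ones in the PCB126 library and 145 in the Control library. They carried all 9 receptors. Cd36 was 315 CPM in the PCB126 ones (294 to 337) and 669.7 CPM in the Control ones (573 to 779). Stab2 was 512 CPM in the PCB126 ones (485 to 541) and 309 CPM in the Control ones (244 to 386), and Mrc1 1399.7 CPM in PCB126 and 947 CPM in Control.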

How the results depend on the processing

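Over 15 alternative settings, 1069 receptor ratios were recomputed. Of these 869 stayed within the counting interval of the reported ratio, 199 moved beyond it, and 1 called ratio crossed 1. That was Stab2 in the pericentral class of the broad gate, 1.79 there and 0.976 with the vessel-marker gate. Another 35 values crossed 1 for ratios that were not called, such as Scarb1 in that class, 0.697 and 1.59. Cd36 was called under all 14 settings in sinusoidal and under all 13 in periportal cells. In venous cells it was called under 12 of 13, the exception being thinning, which left too few UMIs.

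Counts of called receptors that moved by more than 1.5 times were these. Thinning to 1000 UMIs gave 3 in place of 5 in the broad pericentral class, 0 in place of 4 in the vascular class, 2 in place of 5 in venous cells and 1 in place of 5 in arterial and portal cells, with fewer UMIs by construction. Scaling by the median ratio of all genes, and a limit of 50% mitochondrial UMIs, each gave 2 in place of 4 in the broad periportal class. A margin of 2 times between zone markers gave 8 in place of 5 in the broad pericentral class, and the vessel-marker gate gave 2. Leiden clusters gave 5 in place of 3 in the broad sinusoidal class and 3 in place of 5 in arterial and portal cells. The latter were Cd36 and Msr1, both lower, and Lyve1, higher at 1.88. Weighing zones equally, with cells of no clear zone as a class of their own, gave 4 in place of 2 in sinusoidal cells. The cause of these moves was not tested.

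Pericentral cells of the vessel-marker gate were too few at the 10% mitochondrial limit (32 PCB126 and 15 Control cells), with the margin of 2 times (160 and 19), in Leiden clusters (96 and 10) and among cells free of S100a8, S100a9 and hemoglobin (218 and 5). Its Cd36 and Stab1 ratios therefore rest on 9 settings and 37 Control cells. Receptors under 50 UMIs in a class were not judged, and macrophages of the marker gate reached 20 cells in at most 1 library. A Leiden cluster with 118 PCB126 and 26 Control cells held all of them among other cells, with Fcgr2b at 0.603 (0.483 to 0.757) and Cd36 at 0.733 (0.514 to 1.06). No paired analysis was possible because each group has 1 library.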
